A study of Mus musculus with 2 samples.

Results

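Genes of antigen presentation through major histocompatibility complex (MHC) class II were described in lipid A-stimulated mouse macrophages. They are 10 of the 55536 annotated genes in the deposited gene tables. They were chosen by name for their role, with earlier results of these data known, and comprise the classical class II chains H2-Aa, H2-Ab1 and H2-Eb1, the invariant chain Cd74, the peptide editors H2-DMa, H2-DMb1 and H2-DMb2, the modulators H2-Oa and H2-Ob, and the transactivator Ciita. The cells were primary macrophages grown from bone marrow of C57BL/6J mice and stimulated for 75 minutes with lipid A at 100 ng/ml. Lipid A is the membrane anchor of lipopolysaccharide and the ligand of Toll-like receptor 4. Their cytosolic RNA, cleared of ribosomal RNA, was sequenced in 2 libraries of 1 group, named biological replicates 1 and 2 and made from 1 µg of RNA each. Sex and age were not collected, and both libraries carry the same donor label, so whether they are separate animals or cultures is not known and their spread may be technical. With 1 group there was no contrast and no test between conditions. Unstimulated macrophages were not analysed here, so no value below is a response to lipid A.

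Class II molecules carry peptides from endocytosed proteins to the cell surface, where CD4+ T cells read them. An alpha and a beta chain assemble in the endoplasmic reticulum around the invariant chain, which blocks the groove and directs the complex to late endosomes. There proteases cut the invariant chain down to a short peptide, H2-DM exchanges that peptide for others, and H2-O restrains H2-DM. Transcription of these genes depends on CIITA, a coactivator that binds no DNA itself and acts on a set of factors bound at promoter elements called X and Y. Macrophages usually hold little class II until interferon gamma induces Ciita, whereas B cells and dendritic cells express it constitutively.

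All 10 genes had reads in both libraries, with the invariant chain highest. Levels are given as TPM, a length-corrected abundance whose sum is the same in each library. At a mean of 1 TPM or more, 6 of the 10 were counted as present, and these 6 were the classical chains, Cd74, H2-DMa and H2-DMb1. Cd74 stood highest at 82.2 ± 25.2 TPM (SD, n = 2), rank 425 of 22015 nuclear-encoded protein-coding genes. H2-Aa, H2-Eb1 and H2-Ab1 followed at ranks 1200, 1626 and 1884, and H2-DMb1 and H2-DMa at ranks 4283 and 4667. Ciita, H2-DMb2, H2-Oa and H2-Ob lay between ranks 9650 and 10952. In both libraries the order by TPM of the first quantification was Cd74, H2-Aa, H2-Eb1, H2-Ab1, H2-DMb1, H2-DMa. The ranges of H2-Aa and H2-Eb1 overlapped between libraries, as did those of H2-Eb1 and H2-Ab1, of H2-DMb1 and H2-DMa, and of Ciita and H2-DMb2. H2-Oa and H2-Ob, on 25 counts or fewer in each library, could not be ordered, since the second quantification placed H2-Ob above H2-Oa. The other neighbours in the order did not overlap in the first quantification.

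**Figure D1:**
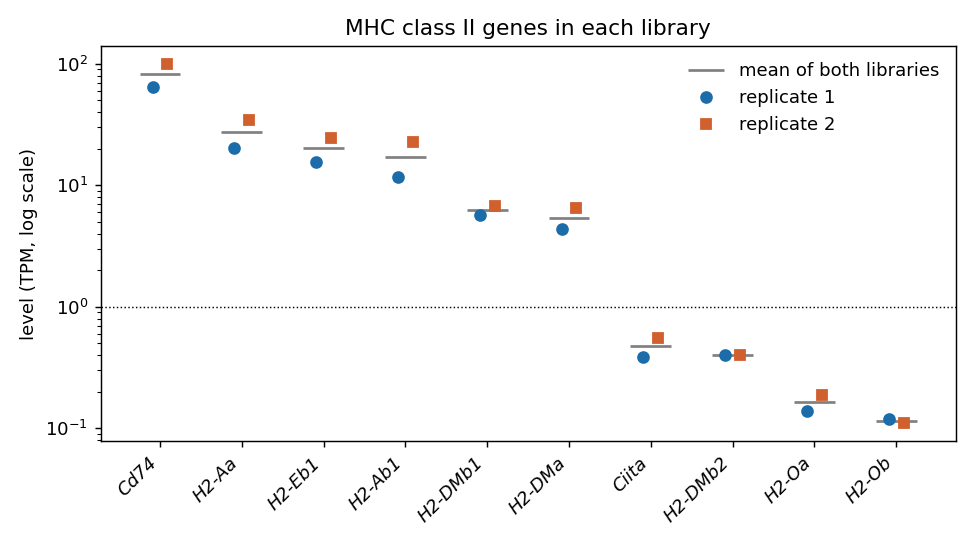
Level of each of the 10 genes in TPM on a log axis, by library (circles replicate 1, squares replicate 2, grey bars their mean, dotted line 1 TPM). Cd74 lies at 64.4 and 100.01 TPM and H2-Ob at 0.12 and 0.11 TPM, and the 4 genes below the line are Ciita, H2-DMb2, H2-Oa and H2-Ob.

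The depth over annotated genes was 55596625 expected counts in replicate 1 and 50157146 in replicate 2. The 7SL genes Rn7s1 and Rn7s2 together made up 69.8% (replicate 1) and 60.5% (replicate 2) of TPM, and the TPM of every mRNA depends on that share. Nuclear-encoded protein-coding genes held 21.6% and 21.9%. When TPM was rescaled over those genes alone, Ciita (2.18) and H2-DMb2 (1.84) also passed 1, making 8 of the 10. Of 10 macrophage markers 10 reached 1 TPM, with summed levels of 6685 and 7050 TPM. Of 10 B and plasma cell markers 1 did, Ighm at 2.57 and 2.25 TPM, and the list summed to 3.08 and 2.83 TPM. Of 6 T cell markers 0 did. Malat1, a nuclear RNA, had 158 TPM in replicate 1 and 799 TPM in replicate 2, 4.68-fold more by scaled counts, and its part in the ratios between libraries given further on was not tested. In bulk RNA, fewer cells with class II and less RNA per cell cannot be told apart.

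Of the members, 8 lie in the class II region of chromosome 17 (mm10), from H2-Oa at 34092340-34095234 to H2-Eb1 at 34305867-34316674, 224 kb in all. Levels were not ordered by position. Along the chromosome came H2-Oa (0.165 TPM), H2-DMa (5.40), H2-DMb2 (0.40), H2-DMb1 (6.23), H2-Ob (0.115), then H2-Ab1, H2-Aa and H2-Eb1 at 17.3 to 27.4 TPM within 59.0 kb. H2-Ob, low in this quantification, thus lies next to the classical genes. Beyond H2-Eb1, the beta chain gene H2-Eb2 had 0.07 and 0.12 TPM. The alpha chain pseudogene H2-Ea-ps, the partner H2-Eb1 lacks in this strain, had 0 counts in both libraries, which allows up to 3 counts in each.

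**Figure D2:**
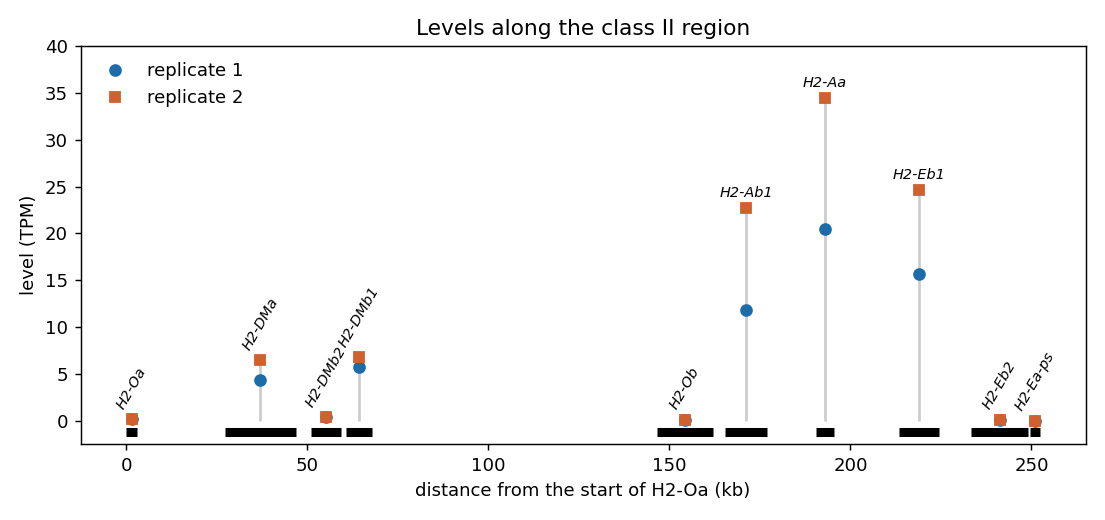
Level in TPM against the distance in kb from the start of H2-Oa on chromosome 17, by library (circles replicate 1, squares replicate 2, black bars the gene bodies). The 3 classical genes H2-Ab1, H2-Aa and H2-Eb1 stand together between 11.8 and 34.4 TPM, with H2-Ob at 0.12 TPM or less beside them.

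The promoters of the class II genes are shown because these genes are known to share promoter elements, while the members with a window ranged here from 0.115 to 27.4 TPM. RefSeq promoter windows (GRCm38.p6, the assembly of mm10, from 250 bases before to 50 after a start site) were matched for 7 of the 10 members. H2-Ab1, Cd74 and Ciita had no entry. Searched on both strands were ATTGG, the inverted CCAAT of a Y box, and GNAAC, letters within the X box of these genes that were chosen after the windows were read. The 60 bases ending 5 after ATTGG are printed 5′ to 3′ on the strand of each gene, with both strings in capitals.
H2-Oa, plus strand, chr17:34092286-34092345: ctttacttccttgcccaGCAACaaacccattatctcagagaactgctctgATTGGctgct
H2-DMb2, plus strand, chr17:34145109-34145168: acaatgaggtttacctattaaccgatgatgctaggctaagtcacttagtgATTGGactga
H2-DMb1, plus strand, chr17:34153080-34153139: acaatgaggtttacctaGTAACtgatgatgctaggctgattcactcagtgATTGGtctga
H2-Ob, plus strand, chr17:34238798-34238857: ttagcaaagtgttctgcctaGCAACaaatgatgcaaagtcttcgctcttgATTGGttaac
H2-Aa, minus strand, chr17:34287862-34287921: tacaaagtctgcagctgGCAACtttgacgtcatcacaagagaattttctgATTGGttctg
H2-Eb1, plus strand, chr17:34305758-34305817: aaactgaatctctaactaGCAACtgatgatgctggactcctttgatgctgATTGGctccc

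In 5 of the 7 members the strings stood as a pair, GNAAC first and 25 to 28 bases between them, namely H2-Oa, H2-DMb1, H2-Ob, H2-Aa and H2-Eb1. Of all 32851 promoter windows, 37.4% held ATTGG, 84.8% held GNAAC, and 2.25% held the pair on one strand with a gap of 20 to 32 bases. The letters and the gap were taken from the members' own windows, so nothing particular to the members can be read from these shares. ATTGG lay 43 to 61 bases before the start site in these 5 genes. The windows of H2-DMb1 and H2-DMb2 were the same at 54 of 60 bases, and the pair was found in that of H2-DMb1. The leading H2-DMb2 transcript starts 1942 bases upstream of the RefSeq start site used, and that of H2-DMb1 starts 119 bases upstream, so these windows do not lie upstream of the leading transcripts measured here. Genes holding the pair differed widely in level, with H2-Oa and H2-Ob at 0.165 and 0.115 TPM and H2-Aa at 27.4 TPM. Levels with and without the pair could not be compared, since the members' windows lacking it lie away from the starts of the leading transcripts. These letters are a description of the windows and not a measure of binding. For H2-DMa the leading transcript starts 12796 and 10110 bases downstream of its 2 RefSeq start sites, so its windows, which lack the pair, are not those of the transcript measured here.

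The classical chains form the peptide-binding molecules themselves, H2-Aa and H2-Ab1 the alpha and beta chain of I-A, and H2-Eb1 the beta chain of I-E. H2-Aa (chromosome 17, 34282744-34287823, minus strand) had 20.4 TPM (replicate 1) and 34.4 TPM (replicate 2), a mean of 27.4 ± 9.90 (SD, n = 2), from 2160 and 3056 expected counts. H2-Ab1 (34257689-34269419, plus strand) had 11.8 and 22.8 TPM (17.3 ± 7.75), from 1333 and 2124 counts. H2-Eb1 (plus strand) had 15.7 and 24.6 TPM (20.2 ± 6.34), from 1564 and 2270 counts. All 3 were higher in replicate 2. The alpha chain exceeded its beta chain in both libraries, by 1.73-fold and 1.51-fold in TPM for H2-Aa over H2-Ab1. H2-Eb1, counting all its transcripts, coding or not, exceeded H2-Ab1 by 1.33-fold and 1.08-fold. Its main coding transcript, H2-Eb1-203, had 2.49 and 6.43 TPM. That was below the coding H2-Ab1-201 at 11.3 and 21.2 TPM.

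H2-Aa and H2-Ab1 each came almost wholly from 1 transcript. H2-Aa-201 made 99.8% and 96.2% of the gene's TPM, and H2-Ab1-201 96.1% and 93.3%. H2-Eb1 differed: its largest transcript, H2-Eb1-205, is annotated for nonsense-mediated decay and made 49.7% and 47.4%. The protein-coding H2-Eb1-203 made 15.9% and 26.1%, and H2-Eb1-204, annotated as retaining an intron, 30.7% and 21.3%. In the second deposited quantification H2-Eb1-205 again led, with 51.1% and 52.7%, and H2-Eb1-203 held 6.32% and 10.05%. The share of H2-Eb1 in its coding form thus depended on the quantification as well as on the library.

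H2-Eb1-203 and H2-Eb1-205 differ at the start of exon 2, where H2-Eb1-203 alone holds 53 bases, not a multiple of 3. The joined exon ends are shown because this junction sets the reading frame, with the bases of H2-Eb1-203 alone in capitals (plus strand, exon 1 part chr17:34306030-34306047, exon 2 part to 34309661, mm10, GENCODE M21 transcripts).
H2-Eb1-203: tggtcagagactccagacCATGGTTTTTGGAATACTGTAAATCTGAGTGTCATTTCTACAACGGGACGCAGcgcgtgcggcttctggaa
H2-Eb1-205: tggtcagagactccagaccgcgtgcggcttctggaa

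Reading from the annotated start, H2-Eb1-203 runs 264 codons to its stop in exon 6 of 6. H2-Eb1-205 stops after 92 codons in exon 2 of 6, 449 bases before its last junction. The pair also differs by 59 bases at the 5′ end and 475 bases at the 3′ end (34316200-34316674), all present in H2-Eb1-203 and lacking in H2-Eb1-205. H2-Eb1-205 holds 0 bases of its own. Which of the 3 differences divided the reads was not tested, and the shares therefore do not measure use of the splice site by itself.

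Cd74 (chromosome 18, 60803848-60812652, plus strand) encodes the invariant chain, the chaperone of all class II pairs. It had 64.4 TPM in replicate 1 and 100.01 in replicate 2, from 7742 and 10233 counts, and was higher in replicate 2. Cd74 alone made 52.2% and 51.0% of the TPM of all 10 members. Its level was 3.15-fold and 2.91-fold that of H2-Aa, and 1.34-fold and 1.22-fold the sum of the 3 classical chain genes. Cd74 RNA thus exceeded that sum in each library, and protein was not measured. The sum counts all transcripts of H2-Eb1, coding or not. The second quantification gave 1.33-fold and 1.20-fold over the same sum.

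Cd74 has a short form and a long form, known as p31 and p41, and the long form carries an added thyroglobulin-like domain. Cd74-201, the short form, made 81.3% of Cd74 TPM in replicate 1 and 76.0% in replicate 2. Cd74-202 made 18.5% and 23.8%. The long form holds 1 more exon of 192 bases (60811294-60811485), a multiple of 3. In the second quantification the short form made 78.5% and 72.4%, so both quantifications placed the long form at 18.5 to 26.9% and higher in replicate 2.

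H2-DMa and H2-DMb1 or H2-DMb2 form H2-DM, the editor that releases the invariant chain peptide. H2-DMa (34119541-34139101, plus strand) had 4.34 TPM (replicate 1) and 6.46 TPM (replicate 2), a mean of 5.40 ± 1.499 (SD, n = 2), from 460.1 and 480.8 counts. H2-DMb1 (34153072-34160230, plus strand) had 5.69 and 6.76 TPM (6.23 ± 0.757), from 781 and 770.0 counts. H2-DMb2 (34143307-34151555, plus strand) had 0.40 TPM in both, from 55.5 and 47.0 counts. The 2 beta chain genes were far apart, with H2-DMb1 14.2-fold and 16.9-fold above H2-DMb2. The alpha chain was at 0.713 and 0.902 of the summed beta chains. In the second quantification that ratio was 0.793 and 1.06, counting all transcripts, coding or not. The leading coding transcripts kept 1 order in both quantifications. H2-DMa-205 had 3.90 and 4.85 TPM in the first and 1.91 and 1.79 in the second. H2-DMb1-201 was higher each time, at 5.69 and 6.59 TPM and at 2.82 and 2.53. H2-Aa exceeded H2-DMa 4.71-fold and 5.33-fold.

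H2-DMb1 and H2-DMb2 are near copies. Their leading transcripts matched at 87.7% of aligned bases, and 13.6% of the 100-base stretches of H2-DMb2-203 occur unchanged in H2-DMb1-201. The deposited posterior SD of the counts, which expresses the uncertainty of the read split between genes, was 1.30 and 1.43 counts for each gene. The split was thus narrow beside the 47.0 counts of H2-DMb2. H2-DMb1 came from 1 transcript, H2-DMb1-201, at 100% and 97.4%. H2-DMb2 was divided between H2-DMb2-203 at 63.1% and 58.0% and H2-DMb2-201 at 36.9% and 42.0%. The split between these transcripts was less certain than that between the genes. For H2-DMb2-201 the posterior SD was 9.20 on 20.6 counts in replicate 1 and 4.43 on 19.8 in replicate 2. In the second quantification H2-DMb2-203 held 76.1% and 69.0%.

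For H2-DMa the leading transcript H2-DMa-205 made 89.8% of TPM in replicate 1 and 75.1% in replicate 2. The noncoding H2-DMa-203 made 0.08% and 13.4%, on 0.05 and 11.4 counts. That transcript of 350 bases made up most of the fall in the leading share of TPM, which corrects for length. By counts H2-DMa-205 held 401 of 460 in replicate 1 and 421 of 481 in replicate 2. The TPM of the whole gene was 1.49-fold higher in replicate 2, against 1.20-fold by scaled counts. Brd2, a transcription regulator on the opposite strand with 24305 and 23908 counts, shares 360 exon bases with H2-DMa but 0 with H2-DMa-205. The strand used in counting is not given in the sources used here, so reads of Brd2 in the other H2-DMa transcripts cannot be told apart from their own.

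H2-Oa and H2-Ob form H2-O, the inhibitor of H2-DM, which is typical of B cells and some dendritic cells. H2-Oa (34092340-34095234, plus strand) had 0.14 TPM in replicate 1 and 0.19 in replicate 2, on 14 and 16 counts. H2-Ob (34238903-34254414, plus strand) had 0.12 and 0.11 TPM, on 25 and 23 counts. The libraries could not be separated at these depths, since the 95% counting interval of the ratio of replicate 2 to replicate 1 ran from 0.598 to 2.89 for H2-Oa and from 0.571 to 1.93 for H2-Ob. Both lay well below H2-DM. H2-DMa exceeded H2-Oa 31.0-fold and 34.0-fold, and H2-DMb1 exceeded H2-Ob 47.4-fold and 61.5-fold.

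H2-Ob was the member on which the quantifications differed most. In the second it had 57 and 133 counts, and H2-DMb1 exceeded it only 13.2-fold and 4.96-fold. There 75.3% and 85.0% of its TPM lay in H2-Ob-207, annotated as retaining an intron, while the protein-coding H2-Ob-201 held 10.05% and 4.08%. In the first, H2-Ob-207 had 3.37 and 0 counts. H2-Oa over H2-Ob was 1.17 and 1.73 in the first quantification but 0.348 and 0.143 in the second, so the order of these 2 genes turned. The level of the coding H2-Ob-201 was low in both quantifications. H2-Oa shares 321 exon bases with the antisense gene BC051537, which had 0 counts in both libraries.

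Ciita (chromosome 16, 10480059-10528418, plus strand) had 0.39 TPM (replicate 1) and 0.56 TPM (replicate 2), a mean of 0.475 ± 0.120 (SD, n = 2), on 210 and 232 counts. It lay below all 7 factors of the X and Y boxes described further on. The leading Ciita-201 made 68.9% and 61.7% of the gene in the first quantification and 51.4% and 50.1% in the second. Of the 6007 bases of that transcript, 1992 at the 3′ end (10526427-10528418, 33.2%) belong to no other Ciita transcript, which limits what the split says of the start used. Dexi, on the opposite strand with 241 and 183 counts, shares 111 exon bases with Ciita-201.

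Ciita is known for alternative promoters used by different cell types, and its 8 annotated transcripts begin in 3 clusters. The middle cluster, from 10488178, held 187 of the Ciita counts in replicate 1 and 202 in replicate 2. The upstream cluster, from 10480059, held 8.37 and 10.5 counts. The downstream cluster, from 10489746, held 14.1 and 19.9 counts. By TPM, which corrects for the great length of Ciita-201, the middle cluster made 73.2% and 65.0% of the gene and the downstream cluster 22.2% and 28.7%. In the second quantification the middle cluster made 57.8% and 53.8% and the downstream cluster 35.2% and 37.0%. The middle cluster was the largest by each of these measures, but its share differed widely between them. No cluster was matched to a named promoter, because no source used here pairs them.

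**Figure D3:**
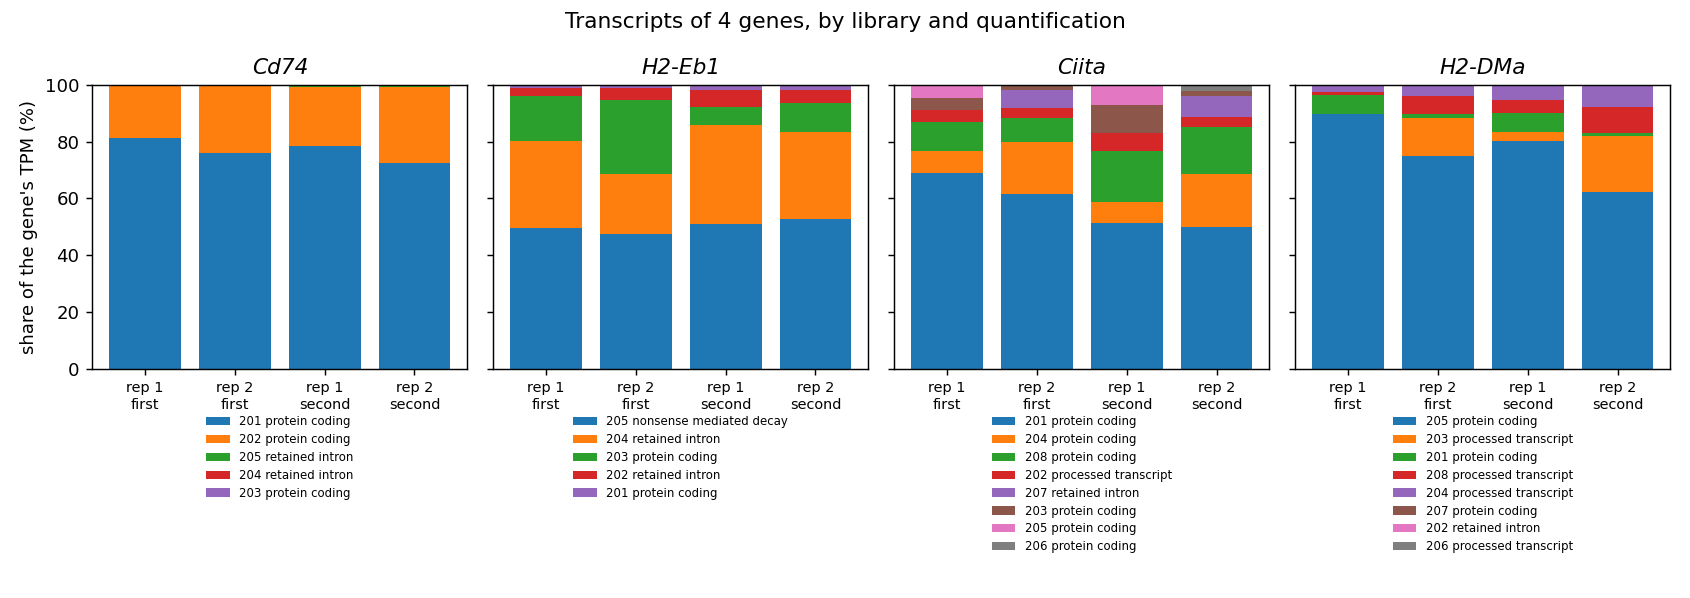
Share of each gene's TPM by annotated transcript, in percent, for Cd74, H2-Eb1, Ciita and H2-DMa, in both libraries and both quantifications. Cd74-201 holds 72.4 to 81.3% of Cd74 and H2-Eb1-205 holds 47.4 to 52.7% of H2-Eb1.

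Comparison of the libraries was made on counts scaled by the trimmed mean of M-values (TMM), as the ratio of replicate 2 to replicate 1. Of the 10 members, 4 were over 1.5-fold higher in replicate 2, against 10.5% of the 13392 genes measured, those averaging at least 10 counts. None (0 of 10) was over 1.5-fold lower, against 3.53%. The 4 were H2-Ab1 at 1.82-fold (95% counting interval 1.70 to 1.95), H2-Eb1 at 1.66-fold (1.56 to 1.77), H2-Aa at 1.62-fold (1.53 to 1.71) and Cd74 at 1.51-fold (1.47 to 1.56). The interval of Cd74 spans 1.5-fold. Since the intervals cover counting error only and there are 2 libraries, they say nothing of other macrophage cultures.

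The genes of the peptide-editing step and Ciita had smaller ratios. Ciita was at 1.26-fold (1.04 to 1.53), H2-DMa at 1.20-fold (1.05 to 1.36) and H2-DMb1 at 1.13-fold (1.02 to 1.25). H2-DMb2 at 0.961-fold had an interval of 0.638 to 1.44. The median log2 ratio was 0.36 over the 10 members and -0.0045 over all genes measured. A log2 ratio above 0 was found in 9 of 10 members, against 6594 of the 13392 genes measured. Among these 9, the intervals of H2-Oa and H2-Ob included 1. In 5509 genes with a mean of 1000 counts or more, the 5th to 95th percentile of the log2 ratio ran from -0.34 to 0.44. H2-Aa, H2-Ab1, H2-Eb1 and Cd74, all at that depth, were above it, with log2 ratios of 0.70, 0.87, 0.73 and 0.60.

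**Figure D4:**
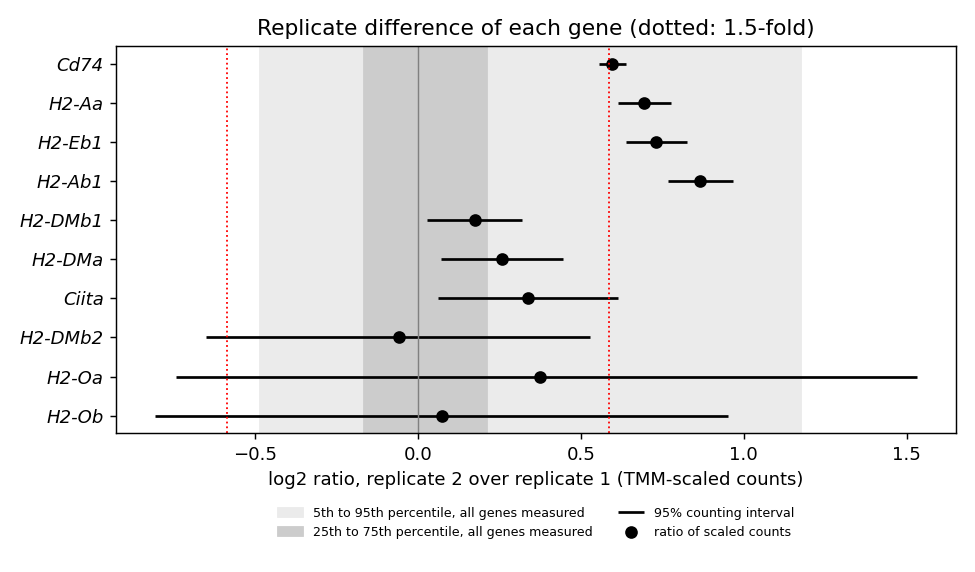
Log2 ratio of replicate 2 to replicate 1 for each member, with 95% counting intervals, over the 5th to 95th (light) and 25th to 75th (dark) percentile of 13392 genes; dotted lines mark 1.5-fold. H2-Ab1, H2-Eb1, H2-Aa and Cd74 lie right of the line at 0.87, 0.73, 0.70 and 0.60.

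Other genes of the pathway were read from lists chosen for their function, 29 genes in all, of which 27 reached 1 TPM. Of the 28 with enough counts, 1 was over 1.5-fold higher in replicate 2, against 10.5% of all genes measured, and 0 were lower, against 3.53%. The 1 was H2-Eb2, on 26 and 36 counts, with an interval of 0.931 to 2.73 that included 1. The 6 enzymes listed for processing of antigen and the invariant chain were all at 1 TPM or more. All 6 had log2 ratios above 0, against 6594 of the 13392 genes measured, with a median of 0.40. Among them Ctss, cathepsin S, the protease of the last invariant chain step, had 558 TPM in replicate 1 and 798 in replicate 2. Ifi30, a thiol reductase of lysosomes, had 14.0 and 17.5 TPM, and its gene is annotated here as a processed transcript. None (0 of 6) was over 1.5-fold higher.

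The factors upstream of class II transcription had list medians nearer to 0. The 7 transcription factors that bind the X and Y boxes, of the RFX, NF-Y and CREB families, were all at 1 TPM or more, with a median log2 ratio of -0.04. Rfx5 had 1.58 and 1.93 TPM, and Nfya had 15.7 and 16.3 TPM. The 10 genes of interferon gamma signalling and Ciita regulation were present too, with a median of -0.01. Irf1, which acts at a Ciita promoter, had 106 and 117 TPM. Ciita itself at 0.475 TPM was thus low beside factors that induce it. The 4 genes of class II turnover had a median of -0.14. March1, which ubiquitinates class II, had 15.3 and 13.6 TPM, and Cd83, which opposes it, 251 and 286 TPM.

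Markers of other cells that carry class II were read in the same way. Dendritic cell markers reached 1 TPM in 2 of 10, Itgax at 0.89 and 1.20 TPM and Ccr7 at 0.71 and 1.34, and summed to 3.19 and 4.73 TPM. Of the 9 with enough counts, 4 were over 1.5-fold higher in replicate 2, against 10.5% of all genes, and 0 lower against 3.53%, with a median log2 ratio of 0.55. The 4 were Flt3, Ccr7, Clec9a and Siglech. Xcr1 had the opposite direction, with 239 and 150 counts and a log2 ratio of -0.48. Flt3 stood at 0.09 and 0.16 TPM, Zbtb46 at 0.11 and 0.20 and Clec9a at 0.04 and 0.08. The interval of the ratio included 1 for Zbtb46, Clec9a, Batf3 and Cd209a. The part of dendritic cells in the difference of the classical chains and Cd74 was not tested. Macrophage markers had a median of 0.32, with 1 of 10, Itgam, over 1.5-fold higher. The B and plasma cell markers differed among themselves, with Cd79a at 0 and 7 counts and Ms4a1 at 2 and 6. The 2 with enough counts were Cd79b, on 50 and 38 counts, and Ighm, on 407 and 303. Their log2 ratios were -0.20 and -0.23.

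**Figure D5:**
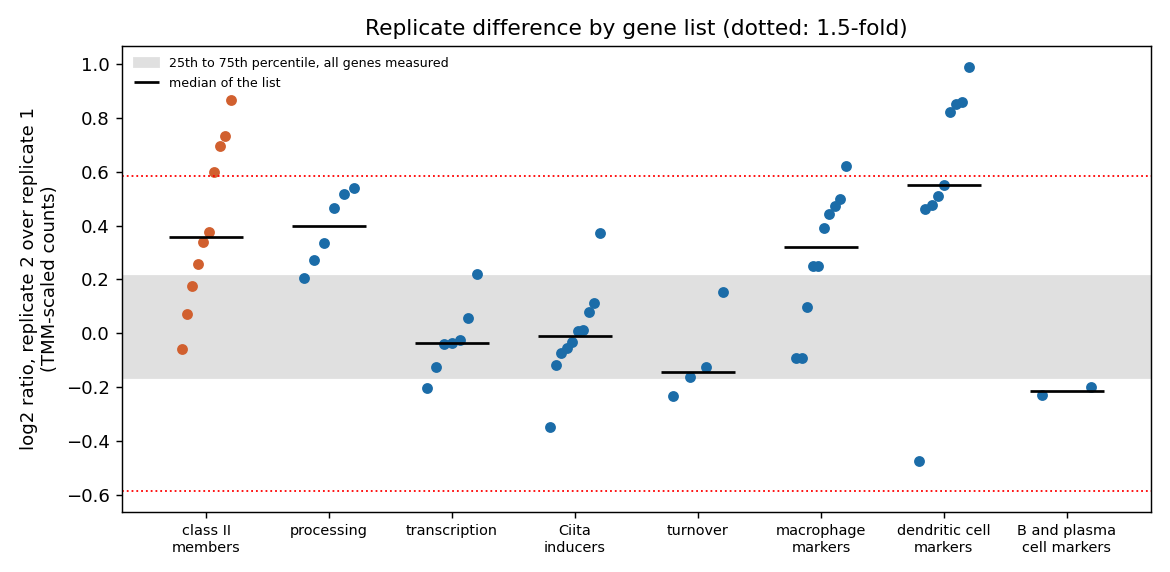
Log2 ratio of replicate 2 to replicate 1 for each gene measured, by list, with list medians as bars, the 25th to 75th percentile of all genes shaded and 1.5-fold dotted. Members, processing enzymes and dendritic cell markers have medians of 0.36, 0.40 and 0.55, and X and Y box factors -0.04.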

How the data were processed

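Cytosolic, ribosomal RNA-depleted total RNA of lipid A-stimulated macrophages was read from 2 libraries of 1 group. All tables use build mm10 and annotation M21, per the deposited readme files. The software is not given in the sources used here, nor is the strand that was counted. Expected counts, the authors' estimates per gene and transcript, are not normalized and not always whole. TPM was computed by the authors, per the file headers. The share of a gene's TPM per transcript is a percent deposited in the first quantification; for the second it was computed from TPM. That second quantification, a transcript table, was summed per gene, and 86 genes had no value in it. Entries without a gene identifier (0.251% and 0.204% of counts) were left out.

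Expected counts were rounded for scaling with TMM in edgeR 4.0.16 (R 4.3.3); the filter was a mean count of 10 and 0.5 was added. Levels were averaged over both libraries. Ratio intervals (95%) are exact binomial and cover counting error only. The calculation was tested on simulated data for replicate 2 over replicate 1 (10086 genes). Intervals covered the ratio in 94.8% of unchanged genes, and all 50 genes set to 2-fold passed 1.5-fold. The simulated counts held counting error only, so these values check the calculation and not the spread between libraries. Of unchanged genes 0.0101% passed 1.5-fold there. Those 10086 genes are fewer than the 13392 genes measured in the data, so the shares of the 2 sets were not compared. Alternatives were DESeq2 1.42.0 size factors, total counts, other filters, pseudocounts and thresholds, another TPM scale, leaving out a library, and the second quantification. The members and lists were chosen with earlier results of these data known. Named were all members, genes of the lists and genes overlapping a member; Malat1 and the 7SL genes were named for their place in the libraries' composition.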

Additional observations from a re-analysis of the deposited data

How the results depend on the processing

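At a threshold of 2-fold, 0 members differed between libraries, against 6.00% of all genes higher in replicate 2 and 0.971% lower. The count of 4 at 1.5-fold was 3 with total counts or with no filter, where Cd74 fell below (log2 ratios of 0.55 and 0.58), against 9.62% and 9.10% of all genes higher. It was 4 with DESeq2 size factors (10.6% of all genes), a pseudocount of 5 (9.42%) and a filter of 100 counts (4 of 7 members, 3.83% of all genes). In the second quantification it was also 4, but 3 were shared: H2-Ob (log2 ratio 1.32) replaced Cd74 (0.50), beside 20.7% of all genes. H2-DMb2 had a log2 ratio above 0 there (0.25), against -0.06. The median over members was 0.31 to 0.42 in every alternative except the filter of 100 counts (0.62, over 7 members). The number of members at 1 TPM was 6 to 6 when either library was left out, 6 at 0.5 or 2 TPM and in the second quantification, and 8 on the nuclear-encoded protein-coding scale. Levels moved beyond the SD in 10 of 10 members both on that scale and in the second quantification. All were higher on that scale, with Cd74 at 377.9 against 82.18 TPM. In the second quantification H2-Ob was higher, at 0.362 against 0.115 TPM. All other members were lower there, with Cd74 at 35.45 TPM and H2-Aa at 11.44 against 27.43 TPM. The leading transcript was the same in both quantifications for 9 of 10, all except H2-Ob. With a library left out, no ratio between libraries exists. No paired analysis was possible because there is 1 group. H2-Oa, H2-Ob and H2-DMb2, at under 60 counts in the first quantification, are limited by depth.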
